A study of Mus musculus with 12 samples.

Results

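Interleukin-12 and interleukin-18 are cytokines that act together on natural killer (NK) cells and T cells, and their ligand and receptor genes were followed here in 12 mouse melanomas. The genes were chosen by probe name, as 7 of the 750 genes of an immune panel: the ligand genes Il12a, Il12b and Il18 and the receptor genes Il12rb1, Il12rb2, Il18r1 and Il18rap. All 7 were above background in the 3 tumors needed to enter the tests, with Il12a at exactly 3. Interleukin-12 is a pair of chains, p35 from Il12a and p40 from Il12b, and the p40 chain also serves interleukin-23. It binds the receptor chains of Il12rb1, which interleukin-23 uses as well, and Il12rb2, and signals through the kinases Jak2 and Tyk2 and the transcription factor Stat4 to interferon-gamma. Interleukin-18 belongs to the interleukin-1 family, is made as a precursor that caspase-1 cleaves, binds the chain of Il18r1 together with that of Il18rap, and signals through Myd88.

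The tumors were B16F10, a mouse melanoma cell line, grown in the flank of C57BL/6 mice (Taconic) and treated when 6 days old. Fusion proteins of interleukin-2 and interleukin-12 with a collagen-binding part were injected into the tumor, so the interleukin-12 given was protein and not a gene. RNA of fixed, paraffin-embedded tumor tissue was counted by hybridization with barcoded nCounter probes, 3 tumors of separate mice in each of 4 groups. The design notes name 4 mice in the repeat-dose cohort in 1 place and 3 elsewhere, and 3 tumors were analysed here. The cytokine dose and the age and sex of the mice are not given in the sources used here. The saline group and the early single-dose group were collected 2 days after their only injection, of saline or of both cytokines. The late single-dose group was collected 8 days after its only cytokine injection. The repeat-dose group had a second cytokine injection 6 days after the first and was collected 2 days later, 8 days after the first. No saline tumor of that later age was analysed, so for late single-dose and repeat-dose tumors against saline, treatment and 6 more days of growth cannot be told apart. Comparisons of late single-dose or repeat-dose tumors with early single-dose tumors also span these 6 days of growth. All 4 groups share 1 cell line and 1 mouse strain. Of 8 listed melanocyte markers only S100b and Mcam are on the panel, with a summed scaled count of 2283 to 3140 over all 12 tumors, so the pigment-cell identity was not checked further.

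The genes of the panel summed to between 392596 counts in repeat-dose replicate C and 1232726 in early single-dose replicate B. Counts are given below divided by each tumor's relative geometric mean of 20 housekeeping probes and are called scaled counts. That mean fell from 2680 ± 363 (SD, n = 3) in saline to 1716 ± 410 in early single-dose, 1467 ± 221 in late single-dose tumors and 919 ± 341 in repeat-dose tumors. With this scaling the median of the 729 genes tested stood 0.56 (log2) above saline in early single-dose, 0.78 in late single-dose tumors and 1.19 in repeat-dose tumors, and with the positive controls 0.13, -0.05 and -0.26. Late single-dose replicate C stood apart from replicates A and B of its group in the receptor genes and Il18, though not in Il12b. Results that rest on it are given with and without it. The limit of background, the mean plus 2 SD of a tumor's negative probes, lay between 16.6 and 29.2 raw counts, but as a scaled count it averaged 12.3 in saline, 19.6 in early single-dose, 26.3 in late single-dose tumors and 44.8 in repeat-dose tumors. Changes relative to the median of all genes are therefore given beside the log2 fold changes, and the alternative scalings beside each result that they end or turn.

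Promoter windows (250 bases before to 50 after the start, RefSeq, build GRCm38.p6) were at hand for 6 of the 7 genes, 9 windows in all, and not for Il12rb1. They were searched on both strands for the interferon-gamma activated sequence TTCNNNGAA, the T-box motif AGGTGTGA, and, by name only here, the interferon-stimulated response element and the NF-kappaB motif. Of all 32851 windows in the table these were present in 8.30%, 1.28%, 3.44% and 0.244% in that order. The windows shown are those of Il12rb2 and Il18r1, which hold the matches found, of Il18rap, the neighbor of Il18r1, and of Il12b, the ligand gene that was not called higher in any treated group. They are Il12rb2 at chr6:67376139-67376438 (minus strand), Il18r1 at chr1:40465756-40466055, Il18rap at chr1:40515112-40515411 and Il12b at chr11:44399813-44400112 (each plus strand), written 5′ to 3′ with motif matches in capitals.
Il12rb2: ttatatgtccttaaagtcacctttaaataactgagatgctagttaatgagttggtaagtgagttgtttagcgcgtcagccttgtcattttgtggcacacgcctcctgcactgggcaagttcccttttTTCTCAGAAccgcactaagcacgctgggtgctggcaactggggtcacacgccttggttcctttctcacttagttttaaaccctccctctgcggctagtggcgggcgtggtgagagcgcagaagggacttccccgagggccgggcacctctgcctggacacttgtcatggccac
Il18r1: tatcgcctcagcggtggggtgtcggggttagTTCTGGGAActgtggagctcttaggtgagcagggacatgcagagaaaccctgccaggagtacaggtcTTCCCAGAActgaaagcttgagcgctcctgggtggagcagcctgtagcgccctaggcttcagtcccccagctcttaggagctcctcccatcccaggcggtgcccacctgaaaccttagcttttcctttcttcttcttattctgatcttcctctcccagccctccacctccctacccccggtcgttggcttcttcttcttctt
Il18rap: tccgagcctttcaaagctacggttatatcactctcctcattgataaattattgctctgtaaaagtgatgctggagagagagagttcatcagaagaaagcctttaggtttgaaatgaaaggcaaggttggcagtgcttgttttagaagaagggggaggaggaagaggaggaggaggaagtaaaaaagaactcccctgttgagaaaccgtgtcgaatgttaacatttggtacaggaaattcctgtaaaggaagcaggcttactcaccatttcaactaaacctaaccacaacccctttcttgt
Il12b: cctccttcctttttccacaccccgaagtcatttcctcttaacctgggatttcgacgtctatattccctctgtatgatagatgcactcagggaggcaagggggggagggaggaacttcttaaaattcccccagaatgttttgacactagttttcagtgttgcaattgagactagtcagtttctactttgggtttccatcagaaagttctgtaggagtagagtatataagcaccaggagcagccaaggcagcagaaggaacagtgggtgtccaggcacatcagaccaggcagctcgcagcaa
The Il12rb2 window holds 1 interferon-gamma activated sequence, TTCTCAGAA, at bases -123 to -115 from the start. The Il18r1 window, 1 of 3 for that gene, holds 2 of them, TTCTGGGAA at -219 to -211 and TTCCCAGAA at -152 to -144. None of the other motifs and no match in the windows of Il12a, Il12b, Il18 or Il18rap was found, which says only that these letters are not in these windows.

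In outline, the receptor genes and Il18 were higher in all treated groups than in saline, and Il12b was not called higher in any. Il12rb1 stood 14.7-fold, 9.17-fold and 21.2-fold above saline in early single-dose, late single-dose and repeat-dose tumors, as ratios of mean scaled counts. Il12rb2, at or near background in saline, stood at least 4.18-fold, 6.12-fold and 10.2-fold above it, with saline counts under a tumor's background limit set to that limit. Il18r1, Il18rap and the ligand gene Il18 stood between 2.44-fold and 5.98-fold above saline. Il12b lay between 0.703-fold and 1.08-fold of saline, and Il12a stayed at or near background in every tumor.

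**Figure D1:**
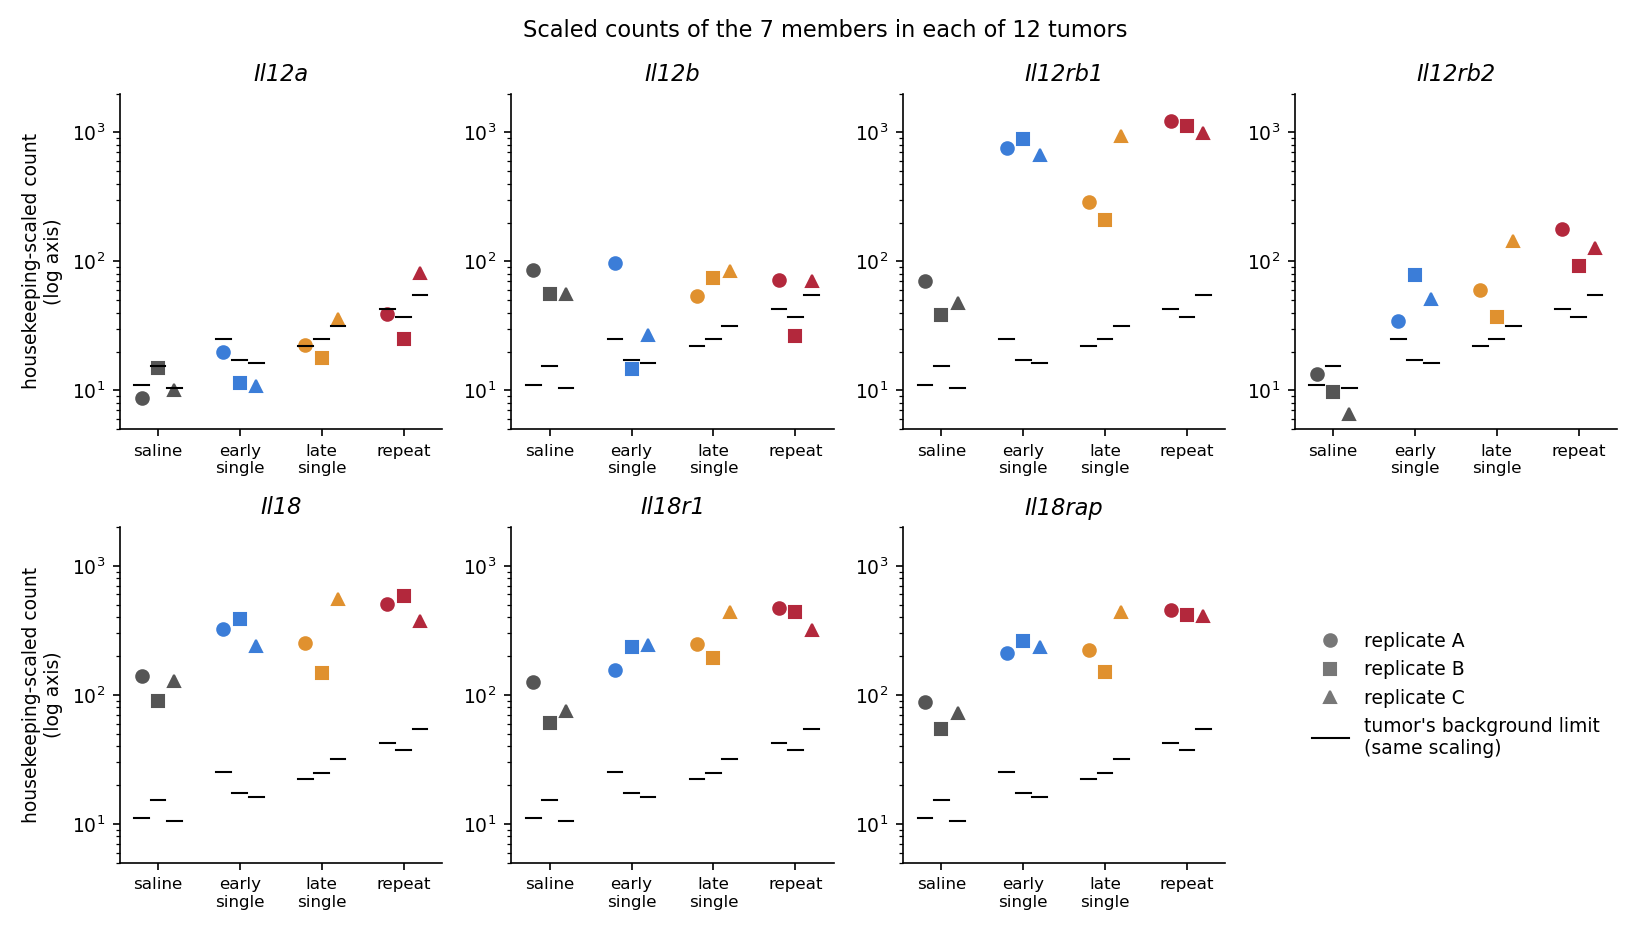
Scaled counts (log axis) of the 7 genes in each of the 12 tumors, by group on the horizontal axis, with 1 symbol per replicate and a short line at each tumor's background limit on the same scale. The receptor genes and Il18 lie above their saline values in all treated tumors, Il12b overlaps between all groups, and Il12a follows the background lines.

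The ligand genes are described first. Il12b, which encodes the p40 chain, had scaled counts of 85.5, 55.4 and 55.4 in saline replicates A, B and C and of 96.5, 14.6 and 27.0 in the early single-dose replicates. It had 53.7, 74.9 and 83.6 in late single-dose and 71.4, 26.4 and 69.8 in repeat-dose tumors. The 4 groups overlapped, with early single-dose replicate A the highest tumor of all and early single-dose replicate B and repeat-dose replicate B below background. In edgeR's quasi-likelihood test the log2 fold change against saline was -0.53 ± 0.61 (SE; relative to all genes -1.09, adjusted p = 0.585) in early single-dose tumors. It was 0.11 ± 0.60 (relative -0.67, adjusted p = 0.921) in late single-dose and -0.24 ± 0.62 (relative -1.44, adjusted p = 0.769) in repeat-dose tumors. By size of the log2 fold change Il12b ranked 719, 589 and 693 of 729 genes from the top in these 3 comparisons, which share the saline tumors.

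The standing of Il12b depended on the scaling. In raw counts it had 128, 97 and 109 in saline and 78, 18 and 35 in early single-dose tumors, 57, 75 and 66 in late single-dose and 49, 20 and 24 in repeat-dose tumors, so that every saline tumor lay above every treated one. Scaled by the positive controls, which are spiked-in targets, the means were 105 ± 14.5 (SD, n = 3) in saline and 30.3 ± 15.1 in repeat-dose tumors. With that scaling the log2 fold change of repeat-dose tumors against saline was -1.79 (edgeR adjusted p = 0.00978). It was -1.48 (adjusted p = 0.0289) with TMM scaling and -1.86 (adjusted p = 0.0248) with the total count. For early single-dose tumors against saline, DESeq2 with its own size factors gave -1.27 (adjusted p = 0.0455), and edgeR without early single-dose replicate A gave -1.65 (adjusted p = 0.0390). Late single-dose tumors against saline gave -0.71 with the positive controls, with an edgeR adjusted p of 0.307.

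Il12a, which encodes the p35 chain, was counted 13 to 28 times per tumor. It was above the background limit in late single-dose replicates A and C and repeat-dose replicate C, at 1.01, 1.12 and 1.48 times the limit, and below it in the other 9 tumors. Scaled counts were 8.68, 14.9 and 10.2 in saline, 19.8, 11.4 and 10.8 in early single-dose, 22.6, 18 and 35.5 in late single-dose and 39.4, 25.1 and 81.5 in repeat-dose tumors. The late single-dose and repeat-dose tumors lay above saline without overlap, as did their scaled background limits. edgeR gave repeat-dose against saline a log2 fold change of 2.05 ± 0.49 (SE; relative 0.86, adjusted p = 0.00453), although 2 of the 3 repeat-dose tumors and all saline tumors were below their own background limits. With TMM scaling the value was 0.79 (edgeR adjusted p = 0.165), with the positive controls 0.37 (adjusted p = 0.490) and after subtraction of the negative mean 2.30 (adjusted p = 0.0753). The scaled count of Il12a thus moved with the scaled background, and no level of Il12a clear of background was measured in 9 of 12 tumors.

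Il18, which encodes the interleukin-18 precursor, was well above background in all 12 tumors. It had scaled counts of 140, 89.2 and 128 in saline, 322, 387 and 240 in early single-dose, 253, 147 and 552 in late single-dose and 507, 579 and 372 in repeat-dose tumors. Every treated tumor lay above every saline tumor, with late single-dose replicate B just above saline replicate A and late single-dose replicate C among the repeat-dose values. The log2 fold change against saline was 1.41 ± 0.43 (SE; relative 0.85, edgeR adjusted p = 0.0330) in early single-dose tumors. It was 1.41 ± 0.43 (relative 0.63, adjusted p = 0.0266) in late single-dose and 2.03 ± 0.44 (relative 0.84, adjusted p = 0.00274) in repeat-dose tumors. With the positive controls the same values were 1.01, 0.54 and 0.64 (edgeR adjusted p = 0.248, 0.493 and 0.333), so the calls of Il18 rested on the scaling. Leaving out 1 tumor at a time, the early call was lost without saline replicate B or C or early single-dose replicate A or B, with the adjusted p reaching 0.119. The late call was lost without saline replicate B or C, and without late single-dose replicate C the value was 0.75 (edgeR adjusted p = 0.134).

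Il12rb1 encodes the shared chain of the interleukin-12 and interleukin-23 receptors. It had scaled counts of 70.8, 38.3 and 47.8 in saline, 755, 891 and 662 in early single-dose, 289, 209 and 941 in late single-dose and 1217, 1125 and 986 in repeat-dose tumors. Each treated tumor lay above all saline tumors and each repeat-dose tumor above all others, while the late single-dose group was split, with replicate C at 941 among the high tumors. The log2 fold change against saline was 3.88 ± 0.53 (SE; relative 3.32, edgeR adjusted p = 0.00316) in early single-dose tumors, rank 9 of 729 genes. It was 3.20 ± 0.52 (relative 2.41, adjusted p = 0.00690, rank 21) in late single-dose and 4.41 ± 0.55 (relative 3.22, adjusted p = 0.000770, rank 19) in repeat-dose tumors. With the positive controls these values were 3.50, 2.31 and 2.99, all with an edgeR adjusted p under 0.05, and each of the 3 calls also held with each of the 12 tumors left out in turn.

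Il12rb2, the chain that is particular to the interleukin-12 receptor, was counted far less often, between 13 and 123 times per tumor. Saline replicate A stood at 1.21 times the background limit and saline replicates B and C lay below it, at scaled counts of 13.4, 9.72 and 6.61. The early single-dose tumors had 34.6, 78.7 and 50.8, the late single-dose tumors 60.3, 36.9 and 143 and the repeat-dose tumors 179, 92.4 and 128. All 9 treated tumors were above both saline and their own background limit, with early single-dose replicate A the nearest to it at 1.38 times. The log2 fold change against saline was 2.47 ± 0.55 (SE; relative 1.91, edgeR adjusted p = 0.00872) in early single-dose tumors. It was 3.01 ± 0.56 (relative 2.23, adjusted p = 0.00690) in late single-dose and 3.75 ± 0.57 (relative 2.56, adjusted p = 0.000770) in repeat-dose tumors. Because saline tumors were at or near the limit, these fitted values rest on counts that background also gives. The calls held with the positive controls (2.17, 2.17 and 2.29, edgeR adjusted p = 0.0129, 0.0303 and 0.00618) and without each of the 12 tumors.

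Il18r1 encodes the ligand-binding chain of the interleukin-18 receptor. It had scaled counts of 126, 60.6 and 74.7 in saline, 157, 235 and 244 in early single-dose, 249, 195 and 442 in late single-dose and 468, 436 and 317 in repeat-dose tumors. No treated tumor overlapped with saline, and the gap was narrow between saline replicate A and early single-dose replicate A. The log2 fold change against saline was 1.29 ± 0.37 (SE; relative 0.73, edgeR adjusted p = 0.0259), 1.76 ± 0.38 (relative 0.98, adjusted p = 0.00768) and 2.23 ± 0.38 (relative 1.04, adjusted p = 0.00107) in early single-dose, late single-dose and repeat-dose tumors. The early call was lost with TMM (0.73, adjusted p = 0.0665) and without saline replicate B or C or early single-dose replicate B or C (adjusted p up to 0.104).

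Il18rap encodes the second chain of that receptor, which is needed for its signal. It had scaled counts of 87.5, 54.3 and 72.2 in saline, 213, 263 and 236 in early single-dose, 223, 152 and 442 in late single-dose and 452, 417 and 410 in repeat-dose tumors. It did not overlap with saline in any treated group, and late single-dose replicate C lay among the repeat-dose tumors, which had a mean of 426 ± 22.3 (SD, n = 3). The log2 fold change against saline was 1.73 ± 0.36 (SE; relative 1.18, edgeR adjusted p = 0.00664), 1.93 ± 0.36 (relative 1.15, adjusted p = 0.00690) and 2.58 ± 0.37 (relative 1.39, adjusted p = 0.000770) in the same order. With the positive controls Il18r1 stood at 0.96, 0.95 and 0.86 and Il18rap at 1.35, 1.08 and 1.13, all higher than saline and none with an edgeR adjusted p under 0.05 (lowest 0.0772).

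In early single-dose tumors against saline, 5 of the 7 genes passed the test, all higher, where 30.5% of the 729 genes tested were called higher. The 5 genes without overlap between the groups compare with 49.9% of genes. Late single-dose tumors against saline also had 5 called higher (39.1% of all genes) and 6 without overlap (42.5%), and repeat-dose tumors against saline had 6 called higher (59.4%) and 6 without overlap (64.1%). The sixth gene was Il12a in each case. It was above background in 3 of 12 tumors, all late single-dose or repeat-dose, and entered the tests through these alone. The median log2 fold change of the 7 genes was 1.41, 1.76 and 2.23, which lay 0.85, 0.98 and 1.04 above the median of all genes. The early count was 3 (Il12rb1, Il12rb2 and Il18rap) with TMM scaling or the total count, where 27.2% and 37.6% of all genes were called in either direction. It was 2 (Il12rb1 and Il12rb2) with the positive controls, where 11.9% of all genes were. The positive controls also left these 2 higher in the late single-dose and the repeat-dose group, the latter with Il12b called lower. In these 2 groups 5.35% and 37.3% of all genes were called with the positive controls. The early count was likewise 3 without saline replicate B, without saline replicate C or without early single-dose replicate B (12.2%, 14.7% and 16.6% of all genes). A fit of only the late single-dose and saline tumors called none of the 729 genes, with adjusted p-values of 0.0576 to 0.0871 for the 5 genes.

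**Figure D2:**
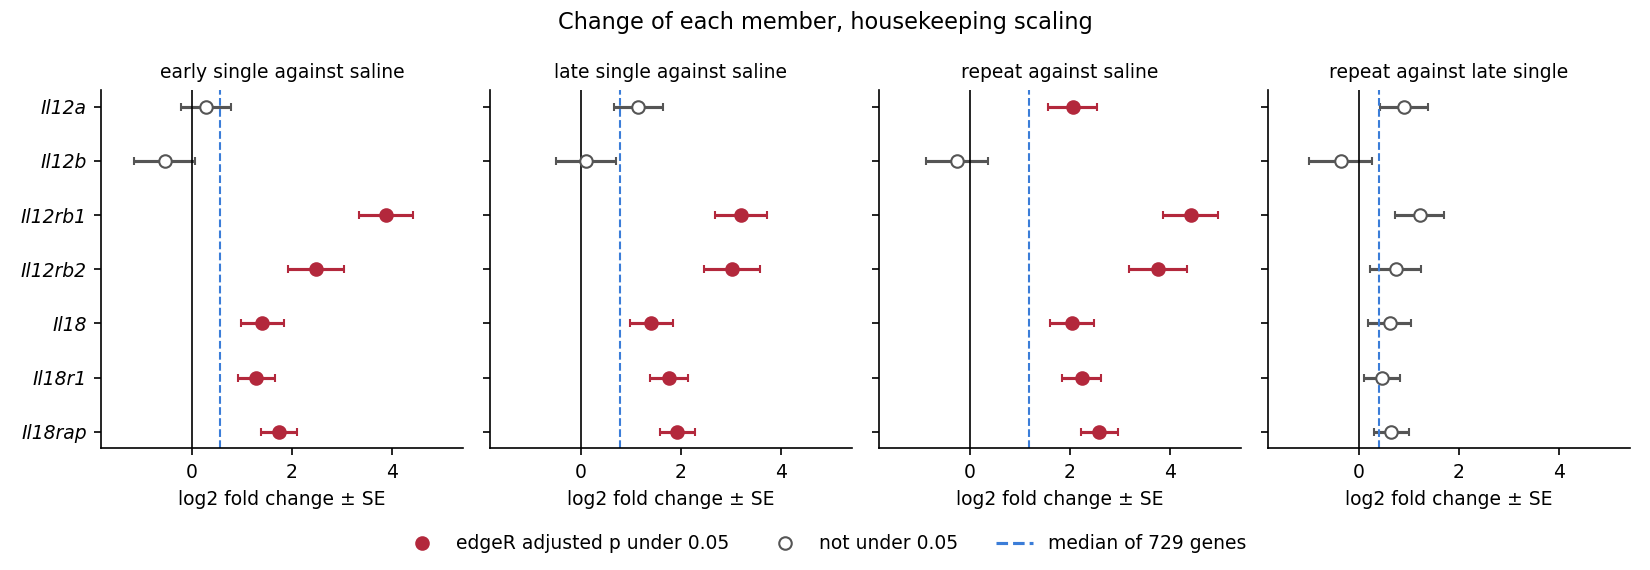
Log2 fold changes with SE of the 7 genes in 4 comparisons, with housekeeping scaling; filled points passed the edgeR test, and the dashed line is the median of 729 genes. The receptor genes lie to the right of that line against saline in each treated group and Il12b to the left, while the filled Il12a point for repeat-dose tumors lost its call with TMM, total-count and positive-control scaling.

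**Figure D3:**
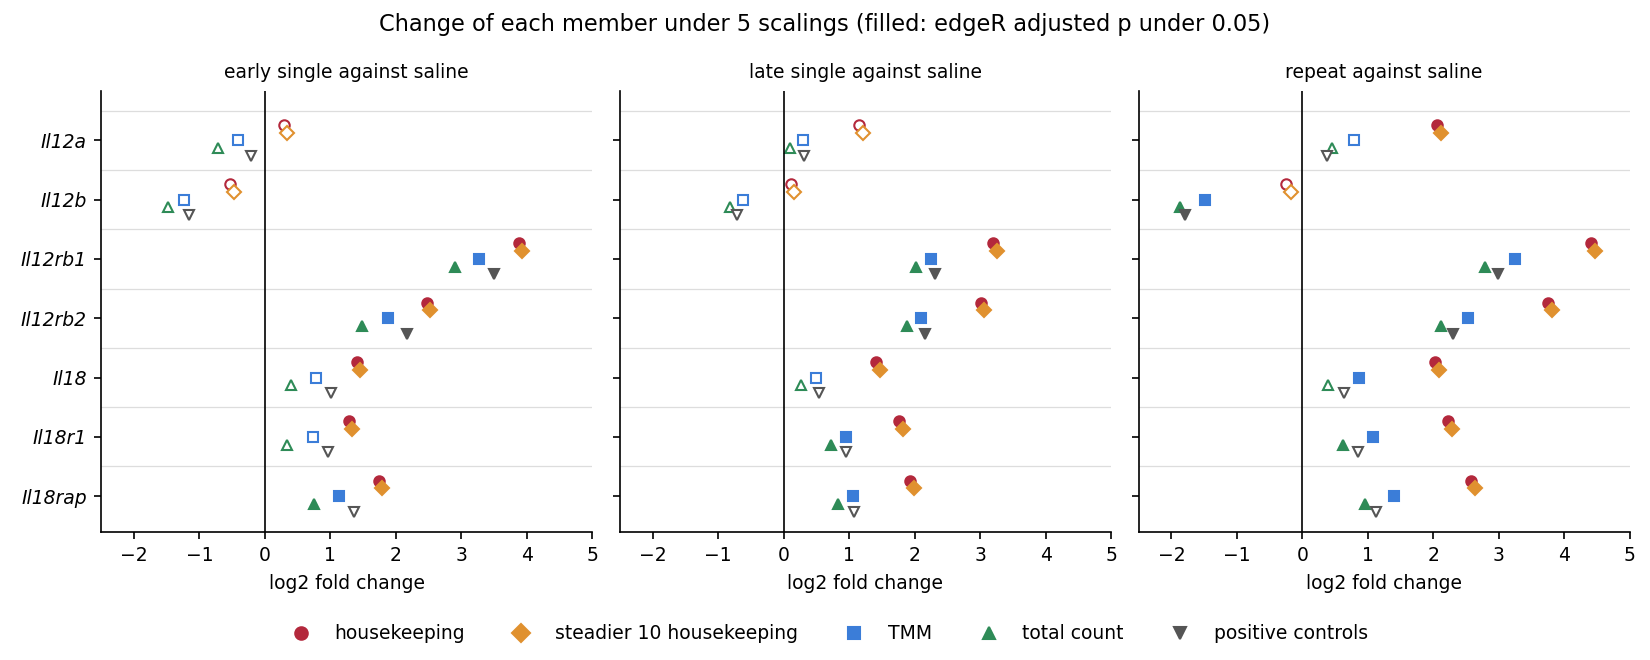
Log2 fold changes of the 7 genes against saline under 5 scalings, with filled symbols where the edgeR adjusted p was under 0.05. Il12rb1 and Il12rb2 are filled and above 0 under all 5. Il18, Il18r1 and Il18rap are above 0 under all 5 but open with the positive controls. With TMM and the total count, Il18 and Il18r1 are also open in early single-dose tumors and Il18 in late single-dose tumors. Il18 in repeat-dose tumors is open with the total count too. Il12b in repeat-dose tumors is filled and below 0 under 3.

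The second dose was examined against late single-dose tumors, which had the same age and had 1 dose fewer. Of the 7 genes none was called, as of all 729 genes (0.0%), and 1 of 7, Il12rb1, had an unadjusted p under 0.05, as had 10.6% of all genes. Il12rb1 was 2.31-fold higher by means, with a log2 fold change of 1.21 ± 0.48 (SE; relative 0.80, edgeR adjusted p = 0.425), and was the 1 gene of the 7 without overlap, where 10.7% of all genes were higher without overlap. The others lay between -0.36 for Il12b and 0.90 for Il12a, and Il18r1 was at 0.47, turning to -0.11 with the total count and -0.09 with the positive controls. Neither DESeq2 nor limma called any of the 7. Late single-dose replicate C decided this comparison: without it 13.7% of genes and 3 of the 7 were called, Il12rb1 at 2.16 (edgeR adjusted p = 0.0118), Il18 at 1.28 (adjusted p = 0.0386) and Il18rap at 1.19 (adjusted p = 0.0289). That tumor had the highest scaled count of its group for all 7 genes and the lowest housekeeping mean of its group, 1217, and the part of the latter in its values was not tested.

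Between 8 and 2 days after a single dose none of the 7 genes was called and none passed unadjusted, with 0.0% of all genes called and 7.82% passing unadjusted. Late single-dose tumors were also 6 days older than early single-dose tumors, so time since the dose and tumor age cannot be told apart. Il12rb1 was lower in late single-dose tumors by a log2 fold change of -0.68 ± 0.48 (SE, edgeR adjusted p = 0.797), and without late single-dose replicate C by -1.63 (adjusted p = 0.0465). DESeq2 with its own size factors also called Il12rb1 lower, where 8.23% of all genes were called. Repeat-dose and early single-dose tumors were both collected 2 days after their last injection, but repeat-dose tumors were 6 days older. In this comparison dose number and tumor age cannot be told apart. Repeat-dose against early single-dose tumors had none of the 7 called and 4 with an unadjusted p under 0.05 (Il12a, Il12rb2, Il18r1 and Il18rap), as had 24.1% of all genes. Without overlap 5 of the 7 genes were higher, where 35.0% of all genes were. Il12a is in both counts, although its scaled count moved with the scaled background. In the order of group means, saline came first for each receptor gene and for Il18, and repeat-dose last. The middle groups overlapped for all of them, late single-dose overlapped with repeat-dose for Il12rb2, Il18, Il18r1 and Il18rap, and for Il12rb1 the order was saline, late single-dose, early single-dose and repeat-dose.

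The estimated effect of the second dose (repeat-dose against late single-dose) was set against that of the first (early single-dose against saline). The second-dose effect was measured in tumors 6 days older, so dose number and tumor age cannot be told apart here. For Il12rb1 the second minus the first was a log2 value of -2.67 ± 0.69 (SE; relative -2.45). Its unadjusted p was 0.00278 and its edgeR adjusted p 0.327 in a model across all genes, so it was not called. For Il12rb2 the difference was -1.73 ± 0.74 (adjusted p = 0.407). Leaving out 1 tumor at a time, the difference ran from -3.03 to -1.72 for Il12rb1 and from -2.08 to -1.02 for Il12rb2, and neither was called in any of these fits. The Il12rb1 difference without late single-dose replicate C was -1.72. No gene passed this test with edgeR and housekeeping scaling (0.0%), and 10.8% of all genes had an unadjusted p under 0.05. The difference of Il12rb1 was called with DESeq2 with housekeeping size factors (-2.67, adjusted p = 0.00932), DESeq2 with its own (-2.23, adjusted p = 0.000503) and edgeR with the total count (-2.13, adjusted p = 0.0429). When all 4 groups were tested jointly, 6 of the 7 were called, all but Il12b, where 48.8% of all genes were. Il12a is among the 6, and entered the test only through the 3 late single-dose and repeat-dose tumors where it was above background.

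Ratios between 2 of the genes within a tumor need no scaling, and 7 ratios were tested by exact permutation of the 12 tumors over the 4 groups (369600 assignments, adjusted over the 7 ratios). Counts under the background limit were set to it. The log2 ratio of Il12rb1 over Il12rb2 averaged 1.97 ± 0.58 (SD, n = 3) in saline, 3.88 ± 0.50 in early single-dose, 2.49 ± 0.23 in late single-dose tumors and 3.10 ± 0.44 in repeat-dose tumors (exact permutation p = 0.00104, adjusted p = 0.00705). All early single-dose tumors lay above all saline and late single-dose tumors in this ratio, so the receptor's 2 chains moved by unequal amounts. Saline values are limited by Il12rb2, which was below background in 2 of 3 tumors there. The ratio of Il12rb1 over Il12b, receptor over ligand chain, averaged -0.34 ± 0.17 in saline, 4.42 ± 1.37 in early single-dose, 2.47 ± 1.01 in late single-dose tumors and 4.28 ± 0.57 in repeat-dose tumors (exact permutation p = 0.00201, adjusted p = 0.00705). The ratio was below 0 in all 3 saline tumors and above 0 in all 9 treated tumors. Since levels of different probes are not comparable, this describes the change of the ratio alone.

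The ratio of Il12b over Il12a averaged 2.40 ± 0.55 (SD, n = 3) in saline, 0.89 ± 0.98 in early single-dose, 1.36 ± 0.20 in late single-dose tumors and 0.17 ± 0.51 in repeat-dose tumors (exact permutation p = 0.0166, adjusted p = 0.0388). Il12a was set to the background limit in 9 of 12 tumors, so this ratio mostly follows Il12b over background. It fell in the repeat-dose tumors below all saline and late single-dose tumors, and its adjusted p rose to 0.0605 with 1 added to raw counts and no limit. For interleukin-18, the ratio of the 2 receptor chains, Il18rap over Il18r1, did not pass the test and averaged -0.24 ± 0.25, 0.18 ± 0.24, -0.17 ± 0.18 and 0.09 ± 0.25 in the 4 groups (exact permutation p = 0.166, adjusted p = 0.194). Il18r1 over Il18 (exact permutation p = 0.273, adjusted p = 0.273) and Il18rap over Il18 (exact permutation p = 0.0693, adjusted p = 0.121) did not pass either. Nor did Il12rb2 over Il12a (exact permutation p = 0.139, adjusted p = 0.194). There Il12a was set to the limit in 9 of 12 tumors and Il12rb2 in 2 of 3 saline tumors. The test therefore does not show that these 2 genes moved alike. With 1 added to raw counts and no limit its exact permutation p was 0.0506 (adjusted p = 0.0886). In Il18rap over Il18 all 3 saline tumors, between -0.83 and -0.68, lay below all 9 treated tumors, between -0.60 and 0.14.

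**Figure D4:**
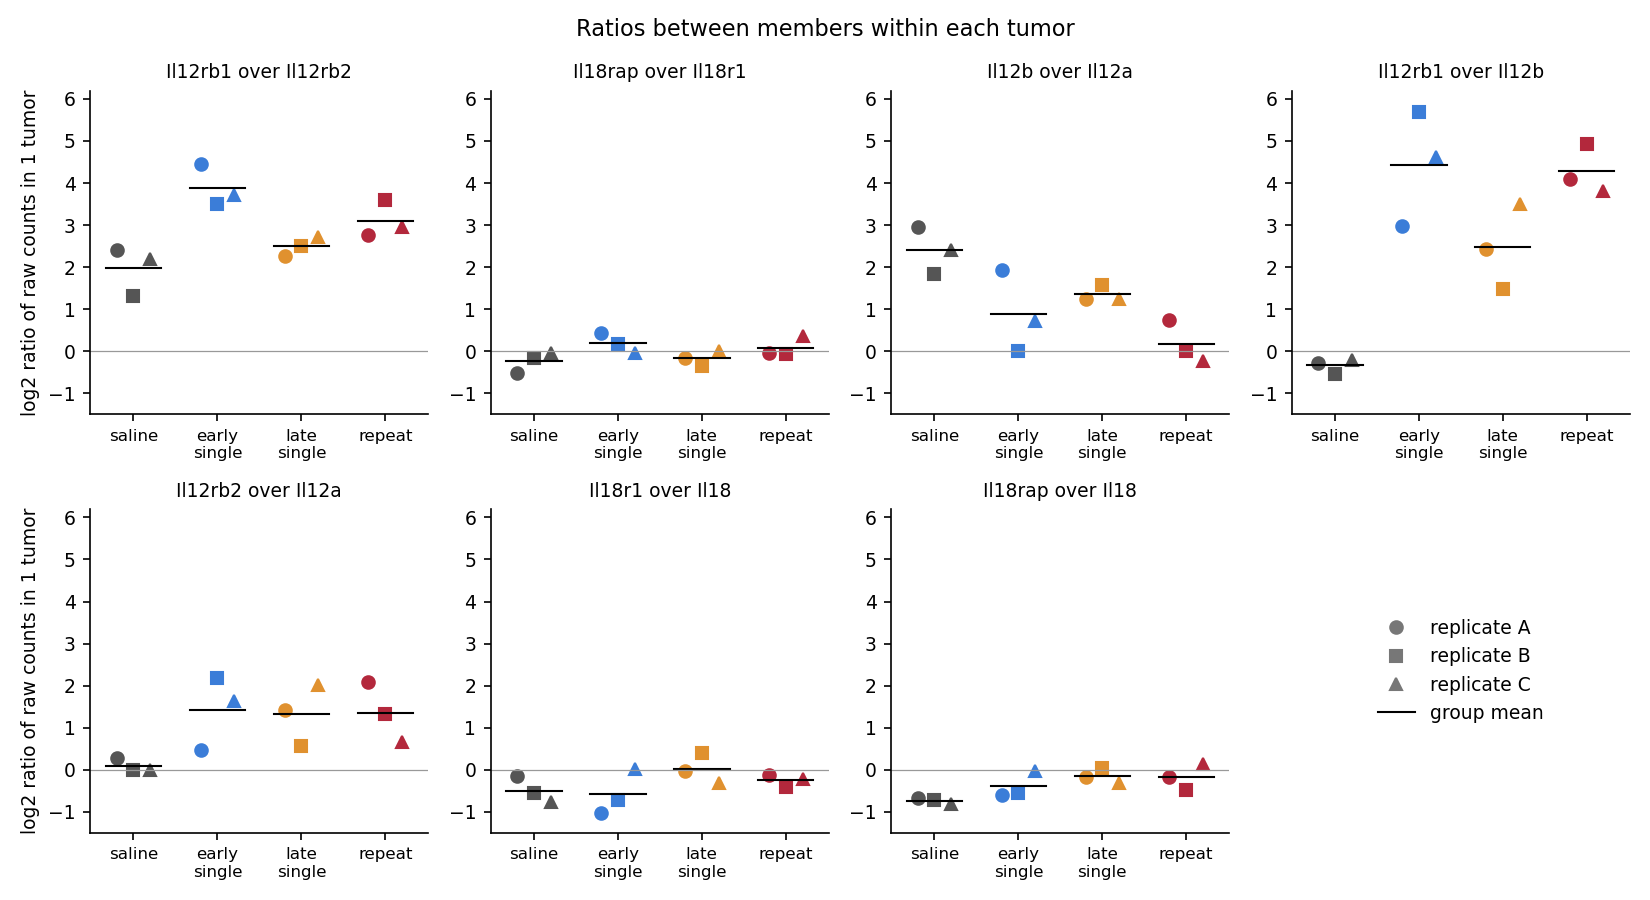
Log2 ratios of raw counts of 2 genes within each tumor, by group, with 1 symbol per replicate and a line at the group mean; counts under a tumor's background limit were set to the limit. Il12rb1 over Il12b is below 0 in all saline tumors and at least 1.48 in all treated tumors, while Il18rap over Il18r1 stays between -0.52 and 0.44.

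The genes most alike in pattern were named by Pearson r over the 12 tumors on log2 scaled counts, as a description. The points share each tumor's housekeeping scaling, and the median r over all tested genes was 0.750 for Il12rb1 and 0.795 for Il18rap. Il12rb1 was closest to Nod1 (r = 0.993), a sensor of bacterial cell walls, Irf1 (0.991), a transcription factor induced by interferons, and H2-T23 (0.991), a nonclassical class I molecule. Among the genes closest to Il12rb2 were Klrc1 (0.982), an NK cell receptor, and Icam1 (0.981), an adhesion molecule. Il18rap was closest to Klrc1 (0.993) and the T cell receptor chain gene Cd247 (0.991), and Il18r1 to Ctsw (0.979), a protease of cytotoxic lymphocytes, Icam1 (0.976) and Klrc1 (0.972). Il18 was closest to Jak2 (0.983), the interferon-stimulated gene Ifit1 (0.977) and Cd1d1 (0.977), which presents lipids to NK T cells. Il12a, near background, was closest to Klrb1 (0.926), Il1a (0.921) and H60a (0.918), with a median of 0.589. Il12b stood apart, with a median r over all genes of 0.0359 and its closest genes Ifna4 (0.918), Pmch (0.893) and Ccr6 (0.882).

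Most listed genes downstream of the interleukin-12 receptor were called higher than saline. Of 13 genes 9 were called higher in early single-dose tumors, 9 in late single-dose tumors and 12 in repeat-dose tumors against saline, where 30.5%, 39.1% and 59.4% of all genes were, with none lower and none called between repeat-dose and late single-dose tumors. The list's median log2 fold change was 1.58, 1.09 and 1.83 in the 3 groups, against 0.56, 0.78 and 1.19 for all genes. In early single-dose tumors against saline, Prf1, which encodes perforin, stood at 4.60 ± 0.52 (SE, edgeR adjusted p = 0.00276). In the same comparison Gzmb, a granule protease, stood at 4.60 ± 0.75 (adjusted p = 0.00316) and Socs1, an inhibitor of cytokine signaling, at 3.41 ± 0.56 (adjusted p = 0.00316). Ifng, the main product of interleukin-12 signaling, rose by 2.61 ± 0.56 on the log2 scale (adjusted p = 0.00761) in early single-dose tumors. It rose by 4.45 ± 0.60 (adjusted p = 0.000770) in repeat-dose tumors, both against saline. From late single-dose to repeat-dose tumors its log2 fold change was 2.32 ± 0.54 (adjusted p = 0.408). Leaving out 1 tumor at a time, this value ran from 1.94 to 3.10. It was called only without late single-dose replicate C (edgeR adjusted p = 0.0188).

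The genes of the signaling chain itself are given next. In early single-dose tumors Jak2 rose by 0.95 ± 0.29 on the log2 scale (SE, edgeR adjusted p = 0.0336) and Eomes, a T-box factor of NK and T cells, by 1.58 ± 0.39 (adjusted p = 0.0141). Tbx21, which encodes T-bet, stood at 0.87 ± 0.34 (adjusted p = 0.0744), Tyk2 at 0.60 ± 0.24 (adjusted p = 0.0759) and Stat4 at 0.40 ± 0.36 (adjusted p = 0.468). The Jak2 call was lost with TMM (adjusted p = 0.233), with the positive controls (0.481) and without saline replicate B or C or early single-dose replicate A or B (up to 0.111). The Eomes call was lost with the positive controls (adjusted p = 0.116), with the total count (0.168), and without saline replicate B or C (up to 0.0692). Jak2, Tbx21 and Tyk2 turned to values below 0 with the total count. Stat4, the factor that interleukin-12 activates, was also the 1 gene of the list not called in repeat-dose tumors (0.34 ± 0.37, relative -0.85, adjusted p = 0.470). Its direction there depended on the scaling: it was -0.88 with TMM (edgeR adjusted p = 0.0392), -1.31 with the total count (adjusted p = 0.0210) and -1.16 with the positive controls (adjusted p = 0.0361).

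Of 17 genes of interleukin-18 processing and signaling on the panel, 4 were called higher in early single-dose, 6 in late single-dose tumors and 9 in repeat-dose tumors, and none lower. These shares lie below the 30.5%, 39.1% and 59.4% of all genes, and the list's median log2 fold change of 0.30, 0.24 and 0.69 lies below that of all genes. Casp1, which encodes the enzyme that cleaves the precursor, rose by 2.43 ± 0.57 on the log2 scale (SE, edgeR adjusted p = 0.0112) in early single-dose and 4.08 ± 0.61 (adjusted p = 0.000770) in repeat-dose tumors. Myd88, the adaptor of the receptor, rose by 1.29 ± 0.29 (adjusted p = 0.00866) and 2.02 ± 0.29 (adjusted p = 0.000770), and both Myd88 calls were lost with the positive controls (adjusted p = 0.231 and 0.327) and the total count (0.169 and 0.0663). The early Casp1 call was lost without saline replicate B or C (adjusted p up to 0.0557). Traf6, the next ligase in that pathway, was called at 0.54 ± 0.16 (adjusted p = 0.0271), which is -0.02 relative to all genes and turned to -0.11 with TMM and -0.45 with the total count, and its call was lost without saline replicate B or C or early single-dose replicate A or B (adjusted p up to 0.108) and with the positive controls (0.885). The antagonist gene Il18bp is not on the panel.

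Of 6 tested relatives of interleukin-12, 0 were called in early single-dose tumors and 2 each in late single-dose and repeat-dose tumors, where 30.5%, 39.1% and 59.4% of all genes were called higher. Il23a, whose product pairs with p40 to form interleukin-23, had a log2 fold change of -0.14 ± 0.61 (SE, edgeR adjusted p = 0.914) in early single-dose tumors, and Il23r, its receptor chain, at 0.08 ± 0.54 (adjusted p = 0.948), which turned to -0.63 with TMM. Ebi3, a p40-like chain of interleukin-27, was at 0.72 ± 0.39 (adjusted p = 0.191), turning to -0.26 with the total count, and rose by 1.71 ± 0.40 (adjusted p = 0.00400) in repeat-dose tumors, a call lost with TMM (adjusted p = 0.102), the total count (0.897) and the positive controls (0.615). Il27 was below background in all 12 tumors.

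Il18r1 and Il18rap lie side by side on mouse chromosome 1 after Il1r2, Il1r1, Il1rl2 and Il1rl1, and all 6 receptor genes of this row are on the panel. In early single-dose tumors the log2 fold changes along the row were 1.27 ± 0.46 (SE) for Il1r2, 1.18 ± 0.53 for Il1r1, 1.29 ± 0.51 for Il1rl2 and 2.62 ± 0.82 for Il1rl1, the interleukin-33 receptor. Il1rl1 was called (edgeR adjusted p = 0.0361), as Il18r1 and Il18rap were, and the other 3 were not (adjusted p = 0.0582, 0.113 and 0.0758 in the same order). In a fit of early single-dose and saline tumors alone, Il1r2 and Il1r1 were called (edgeR adjusted p = 0.0441 and 0.0408) and Il1rl2 was not (0.0705). That fit called 35.0% of all genes. Il1rl1 was at 3.58 ± 0.86 (adjusted p = 0.00448) in repeat-dose tumors. Il1rap, the partner chain of the other interleukin-1 family receptors, was called in early single-dose tumors at 0.60 ± 0.19 (adjusted p = 0.0371), with values of -0.05 with TMM and -0.38 with the total count. The early Il1rl1 call was lost without saline replicate B or C or early single-dose replicate A or B (adjusted p up to 0.121) and with the positive controls (0.0605). The Il1rap call was lost when any 1 of these 4 tumors, late single-dose replicate A or repeat-dose replicate B was left out (adjusted p up to 0.136), and with the positive controls (0.864). It was also lost in the fit of early single-dose and saline tumors alone (edgeR adjusted p = 0.0607). In the whole list of interleukin-1 family relatives 2, 3 and 6 of 8 genes were called higher in early single-dose, late single-dose and repeat-dose tumors, beside 30.5%, 39.1% and 59.4% of all genes.

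**Figure D5:**
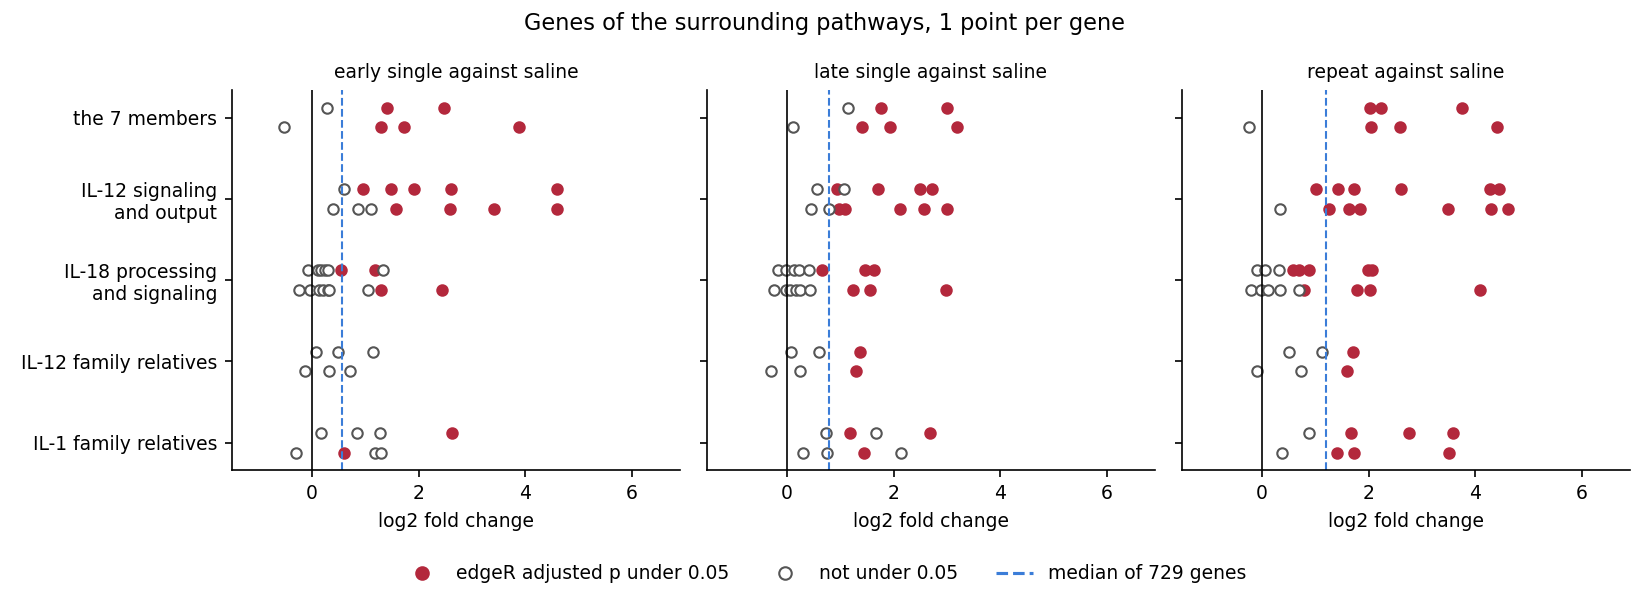
Log2 fold changes against saline of the 7 genes and of 4 lists around them, 1 point per gene, with housekeeping scaling; filled points passed the edgeR test and the dashed line is the median of 729 genes. Points of the interleukin-12 list mostly lie right of the line and those of the interleukin-18 list mostly at or left of it.

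Markers of other cell types are given beside these values, and their counts are to be read against the 30.5%, 39.1% and 59.4% of all genes called higher in early single-dose, late single-dose and repeat-dose tumors. The summed scaled count of 7 NK cell markers ran from 313 to 656 in saline, 1298 to 1591 in early single-dose, 729 to 1603 in late single-dose and 1385 to 2293 in repeat-dose tumors, with 5, 4 and 5 of the 7 called higher in the treated groups. The sum of 12 T cell markers ran from 721 to 1401, 1779 to 2406, 1773 to 4197 and 3515 to 4142, with 3, 8 and 9 of the 12 called higher, in early single-dose tumors a share below that of all genes. Of 8 macrophage markers 3, 6 and 8 were called higher, with sums of 888 to 3555, 4770 to 10371, 5696 to 14490 and 9309 to 32204. Of 5 dendritic cell markers on the panel 0, 1 and 2 were called higher, below the share of all genes in each group, with sums of 190 to 472, 308 to 424, 388 to 535 and 449 to 671, and all of these NK cell, T cell, macrophage and dendritic cell markers were above background in at least 1 tumor of each group. In RNA of whole tumors, more cells of a type and more RNA per cell cannot be told apart, and the part of these cells in the rise of the receptor genes was not tested.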

How the data were processed

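RNA of 12 tumors was hybridized to the nCounter mouse PanCancer Immune panel. The authors deposited raw counts per probe, with no normalization per the file headers, and a table of signal values, analysed with nSolver per the labels' design text. That deposited signal equals raw count times 1 factor per tumor within 0.00882%, and served as an alternative only. Replicates differed by more than sampling noise (chi-square per degree of freedom 24.2 to 154), so each tumor was counted once. Same-letter replicates did not pair (8 of 18 correlations of deviations over 0.1), so no block was used.

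Genes above the background limit in at least 3 tumors were tested (729, with 21 left out). The test was edgeR 4.0.16's quasi-likelihood test in R 4.3.3, fitted on all 12 tumors with library sizes set by the housekeeping probes and Benjamini-Hochberg adjustment over 729 genes at a threshold of 0.05. Positive-control, TMM, total-count and steadier-10-housekeeping scaling, DESeq2 1.42.0, limma 3.58.1 on log2 of the authors' deposited signal plus 1, other filters, a replicate block and 12 fits without 1 tumor each were the alternatives. The SE given with a log2 fold change is its absolute value divided by the square root of the F value of edgeR's test. It draws on the fit of all 12 tumors. The test was tested on simulated data. Ratios and figures were made with Python 3.11.15, numpy 2.4.6, pandas 2.3.3 and matplotlib 3.10.9.

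The genes, lists and tests were chosen with earlier results of these data known. Genes around the axis were named from the interleukin-12, interleukin-18, interleukin-12 family and interleukin-1 family lists, and likeness by the 3 highest Pearson r on log2 of the scaled count plus 1. Some of these genes are not reported here. Comparisons with saline share the saline tumors. Intervals from 3 tumors a group cover the spread between these mice, and the number of counts limits Il12a, Il12b and Il12rb2 most.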

Additional observations from a re-analysis of the deposited data

How the results depend on the processing

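Il12rb1 and Il12rb2 were called higher than saline in all 3 treated groups under 5 scalings. The fit of late single-dose and saline tumors alone called 0 of the 7 genes. Of the 7 genes, early single-dose against saline called 3 with TMM, 3 with the total count and 2 with the positive controls, late single-dose against saline 2 with the positive controls, and repeat-dose against saline 3 with the positive controls. Late against early single-dose called 1 with DESeq2's own size factors, repeat-dose against early single-dose 1 with DESeq2 on housekeeping factors (Il12a) and 1 in the fit of both groups alone (Il18rap). The difference between the doses' effects called 1 (Il12rb1) with the total count and with either DESeq2 setting, and the joint test 3 with the total count and 3 with the positive controls. Leaving out 1 tumor at a time gave 3 to 5 of the 7 in early single-dose, 4 to 5 in late single-dose and 6 to 6 in repeat-dose tumors against saline, 0 to 3 between repeat-dose and late single-dose, 0 to 1 between the single-dose groups, 0 to 0 between repeat-dose and early single-dose and for the doses' difference, and 4 to 6 in the joint test. Over all genes and in either direction, early single-dose against saline called 227 in the main fit, 222 of them higher. It called 87 with the positive controls, 89 when saline replicate B was left out, 107 when saline replicate C was and 121 when early single-dose replicate B was. Late single-dose against saline called 286 in the main fit, 39 with the positive controls and 0 in the fit of both groups alone. It called 107 without late single-dose replicate C and 86 without saline replicate B, the lowest of the fits without 1 tumor. Repeat-dose against saline called 447 in the main fit and 272 with the positive controls.

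With a replicate block, repeat-dose, late single-dose and early single-dose tumors against saline had 6, 4 and 5 of the 7 called. Il18 was then at 1.37 (edgeR adjusted p = 0.0510) in late single-dose tumors and Tbx21 was called in early single-dose tumors at 0.92 (adjusted p = 0.0426). The block gave the Il12b over Il12a ratio an exact permutation adjusted p of 0.0567, against 0.0605 with raw counts plus 1 and 0.0745 with a floor at the highest negative probe. Without 1 tumor each the exact permutation adjusted p ran from 0.00682 to 0.135 for that ratio, from 0.00409 to 0.0232 for Il12rb1 over Il12b and from 0.00591 to 0.0232 for Il12rb1 over Il12rb2. It ran from 0.0566 to 0.256 for Il18rap over Il18, 0.0572 to 0.539 for Il18r1 over Il18, 0.0784 to 0.345 for Il12rb2 over Il12a and 0.117 to 0.335 for Il18rap over Il18r1.

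Log2 fold changes turned sign as follows, and the cause was not tested. Early single-dose against saline with TMM gave Il12a -0.41, Tyk2 -0.027, Stat4 -0.27, Traf6 -0.11, Il23r -0.63 and Il1rap -0.051. With the total count it gave Il12a -0.72, Jak2 -0.048, Tbx21 -0.11, Tyk2 -0.37, Stat4 -0.59, Traf6 -0.45, Ebi3 -0.26, Il23r -0.95 and Il1rap -0.38. With the positive controls it gave Il12a -0.21, Stat4 -0.12 and Il23r -0.50. DESeq2 with its own size factors gave Il12a -0.46, Tyk2 -0.071, Stat4 -0.33, Traf6 -0.15, Il23r -0.68 and Il1rap -0.096, and subtraction of the negative mean Il12a -0.83 and Il23r -0.19. Late single-dose against saline gave Il12b -0.62 with TMM, -0.81 with the total count, -0.71 with the positive controls, -0.63 with DESeq2's own factors and -0.12 after subtraction. Repeat-dose against saline gave Stat4 -0.88, -1.31, -1.16, -0.90 and -0.39 in the same order, and repeat-dose against late single-dose gave Il18r1 -0.11 with the total count and -0.090 with the positive controls. Without 1 tumor each, early single-dose against saline ran from -0.025 to 0.53 for Il12a, -1.15 to 0.23 for Il23a, -0.51 to 0.47 for Il23r and -0.021 to 0.62 for Stat4. Il12b ran from -0.025 to 0.35 in late single-dose and -0.50 to 0.11 in repeat-dose tumors against saline, and from -0.61 to 0.0021 between repeat-dose and late single-dose. Counts near background limit Il12a in 9 of 12 tumors and Il12rb2 in saline.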
